A study of Mus musculus with 6 samples.

Results

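Alternative 5' splice sites are pairs of donor sites at the end of the same exon, joined to the same downstream exon. The events described here are all rows of the authors' alternative 5' splice site table with a mean of at least 20 reads over the 6 libraries. There were 2166 of them among 2626 rows, in 1632 genes. The libraries were polyA RNA of small intestinal crypt cells from C57BL/6 mice aged 60 days. WT mice (3 libraries) carried the floxed alleles without Cre (Ptbp1f/f), and PTBP1_KO mice (3 libraries) were Ptbp1f/f;Vil-creER+/-, in which a villin-driven, tamoxifen-inducible Cre acts in intestinal epithelium. Tamoxifen was given to both genotypes (100 mg/kg, daily on 2 days), and crypt cells were taken 20 h after the last dose, with villi scraped off first. The labels do not say that each library is a separate mouse, so the spread between libraries may be partly technical. In the splicing table the libraries stand in numbered sets of 3, and its header does not say which set is WT. Directions below are therefore by set, not by genotype.

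A 5' splice site is first paired with U1 snRNA and is then handed to U6 snRNA before the first cut. When an exon has a pair of such sites, use of the downstream one lengthens the exon by the stretch between them, and the reading frame is kept when the length of that stretch is a multiple of 3. PTBP1 binds pyrimidine-rich RNA and can repress or favour nearby splice sites, including competing 5' sites. In this text the inclusion level is the share of transcripts that use the downstream site and so carry the long exon, computed per library as reads of each form divided by that form's effective length.

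The sequences below show the upstream 5' splice site of the events on which the results turn, with its GT in capitals. All are on mm10, written 5' to 3' on the gene's strand and read from GENCODE M21 transcripts. The first set is whole coding stretches that only the long form contains, chosen because these keep the reading frame. Their differences are given below, and those of Hmga1 and Upf1 did not pass the test. Tjp1 lies at chr7:65299670-65299708 on the minus strand, Usp5 at chr6:124818475-124818543 on the minus strand, 4932438A13Rik at chr3:37030644-37030748 on the plus strand, Rnf220 at chr4:117285851-117285928 on the minus strand, Hps1 at chr19:42766686-42766709 on the minus strand, Klc1 at chr12:111789460-111789486 on the plus strand, Hmga1 at chr17:27559671-27559703 on the plus strand and Upf1 at chr8:70339982-70340014 on the minus strand.
Tjp1: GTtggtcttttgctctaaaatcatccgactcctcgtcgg
Usp5: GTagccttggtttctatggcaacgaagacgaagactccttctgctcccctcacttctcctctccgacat
4932438A13Rik: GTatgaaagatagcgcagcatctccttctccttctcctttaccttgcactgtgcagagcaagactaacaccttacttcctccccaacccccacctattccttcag
Rnf220: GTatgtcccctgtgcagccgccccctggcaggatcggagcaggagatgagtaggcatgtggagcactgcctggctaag
Hps1: GTcccggagcacaaggggaacagg
Klc1: GTgagtatgagcgtagagtggaatggg
Hmga1: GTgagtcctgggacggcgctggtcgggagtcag
Upf1: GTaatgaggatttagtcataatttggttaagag

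The next set gives 12 exonic bases and the start of the stretch, for 1 frame-shifting coding event (Htra2), 1 event in a U1 snRNP-associated gene (Prpf39) and the 354 nt event of Mprip. Htra2 is at chr6:83053020-83053049 on the minus strand, Prpf39 at chr12:65043346-65043375 on the plus strand and Mprip at chr11:59737217-59737246 on the plus strand.
Htra2: ctggttaacctgGTgagtgtccgtgttctt
Prpf39: caatcagatgagGTgcgtacatcaatgaat
Mprip: cccacacagcagGTatggttgtcctggatc

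The last set is of very close pairs, 12 exonic bases followed by the whole stretch of 4 or 6 bases, after which the downstream site begins. Dpp7 (4 nt) is at chr2:25355810-25355825 on the minus strand, Srsf5 (4 nt) at chr12:80945657-80945672 on the plus strand, Ehmt1 (6 nt) at chr2:24886997-24887014 on the minus strand and Tra2a (6 nt) at chr6:49245476-49245493 on the minus strand. Dpp7 and Ehmt1 passed the test described below, while Srsf5 and Tra2a did not.
Dpp7: tttgctgagcacGTgg
Srsf5: agaccctgtccgGTag
Ehmt1: tgctaagggaagGTaaag
Tra2a: ttatgattaccgGTacag

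The 2166 events covered 2025 pairs of sites. In 119 pairs the same sites stood on more than 1 row, 260 rows in all, and 335 genes had more than 1 row (up to 13), so events are not independent of each other. The median event had a mean of 206 reads per library. Summed over the events, the libraries held 1370917 to 1784156 reads, with totals of the sets overlapping. No event had a library without reads, and in 164 events (7.57%) at least 1 library had fewer than 20. Median inclusion was 0.841 to 0.862 across the 6 libraries, and no library stood apart, with a median gap of 0.00789 to 0.0102 to the median of all libraries. Just inside the limit of 20 reads were events of Traf7, Zfat and Cep250 at 20 reads, and just outside were Scg3, Pcnx3 and Rps6kb2 at 19.8 reads. The level of epithelial markers was high in both genotypes (Epcam, Vil1, Cdh1, Krt8, Krt19 and Cldn7, 227.3 to 2011 FPKM in WT). Enterocyte markers (Alpi, Apoa1, Fabp2 and Sis) were high too, at 108.3 to 2580 FPKM in WT and 102.7 to 2914 in PTBP1_KO. Crypt markers (Lgr5, Ascl2, Mki67, Olfm4 and Lyz1) ranged from 6.78 FPKM in WT for Lgr5 to 1471 for Lyz1. Lyz1 alone of these was higher in PTBP1_KO, at 2470 FPKM. No crypt or enterocyte marker that was tested had a q-value below 0.05 in the authors' deposited table. Stromal, muscle, vessel and neuron markers were below 1 FPKM. All 4 immune markers (Ptprc, Cd3e, Cd79a and Cd8a) were higher in PTBP1_KO, from 4.30 to 5.96 FPKM in WT to 7.52 to 9.26 FPKM, and their summed level went from 21.4 to 33.4 FPKM. In the authors' deposited table (Cuffdiff) all 4 had an unadjusted p below 0.05, and Cd8a alone of them had a q-value below 0.05 (0.0125). Their part in the splicing differences was not tested, and in bulk RNA fewer cells of a type cannot be told apart from less RNA per cell.

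The distance between the sites ranged from 1 to 4442 nt, with a median of 73 nt and quartiles of 22 and 228 nt. A distance of 4 nt was the most common, with 84 events, followed by 9 nt (56), 12 nt (38), 6 nt (37) and 5 nt (36). The bases between the sites of the 4 nt pairs were GTAG in 26 of 84 events (31%), as in Srsf5, then GCAG and GTGA in 11 each, and GTGG in 8, as in Dpp7. Median inclusion of the long form was 0.270 at 1 to 12 nt, 0.671 at 13 to 50 nt, 0.823 at 51 to 100 nt, 0.955 up to 300 nt and 0.977 above 300 nt (reads from an unspliced intron also count for the long form, as said below). At exactly 4 nt it was 0.170. The plot of distances shows the single tall bar at 4 nt. Bars at multiples of 3 stood above both neighbours from 6 to 48 nt, except at 24 nt, but not from 51 to 60 nt.

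**Figure D1:**
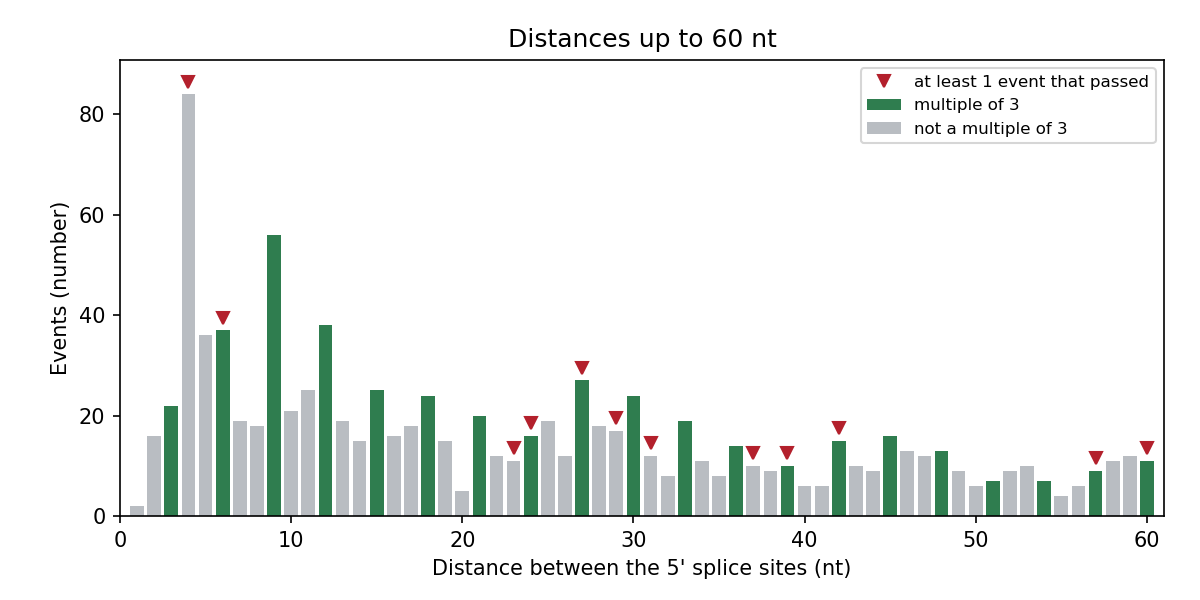
Number of alternative 5' splice site events at each distance between the sites up to 60 nt (x axis, nucleotides; y axis, events). Green bars are multiples of 3, grey bars are other distances, and a red triangle marks a distance with at least 1 event that passed; the tallest bar is 84 events at 4 nt, with 1 event that passed.

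The distance was a multiple of 3 in 817 events (37.7%), left a remainder of 1 in 714 and of 2 in 635. The share was counted by where the stretch lay in the GENCODE M21 annotation. Among 930 stretches inside a coding sequence, 52.8% were multiples of 3. That share was 73.8% in the 599 of them whose short form was also annotated as a coding transcript and 14.8% in the 331 whose short form was not. It was 24% of 175 stretches in a 5' UTR and 29.2% of 619 found only in other non-coding transcripts. The share was lower than in both, at 22.5%, in 382 found in transcripts annotated for nonsense-mediated decay and in no protein-coding one. That pathway degrades messages with an early stop codon. Annotation as coding or for decay depends in part on the reading frame, so these shares are not independent of it. Coding stretches were short, with a median of 37.5 nt, and those of other non-coding transcripts long, with a median of 283 nt. Both forms were annotated as protein-coding in 808 events (37.3%), the short form alone in 935 (43.2%), the long form alone in 345 (15.9%) and neither in 78 (3.6%). For comparison, 47.9% of 3713 alternative 3' splice site events with at least 20 reads had a distance that was a multiple of 3. No test was made of that difference, because rows that share sites and genes are not independent.

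**Figure D2:**
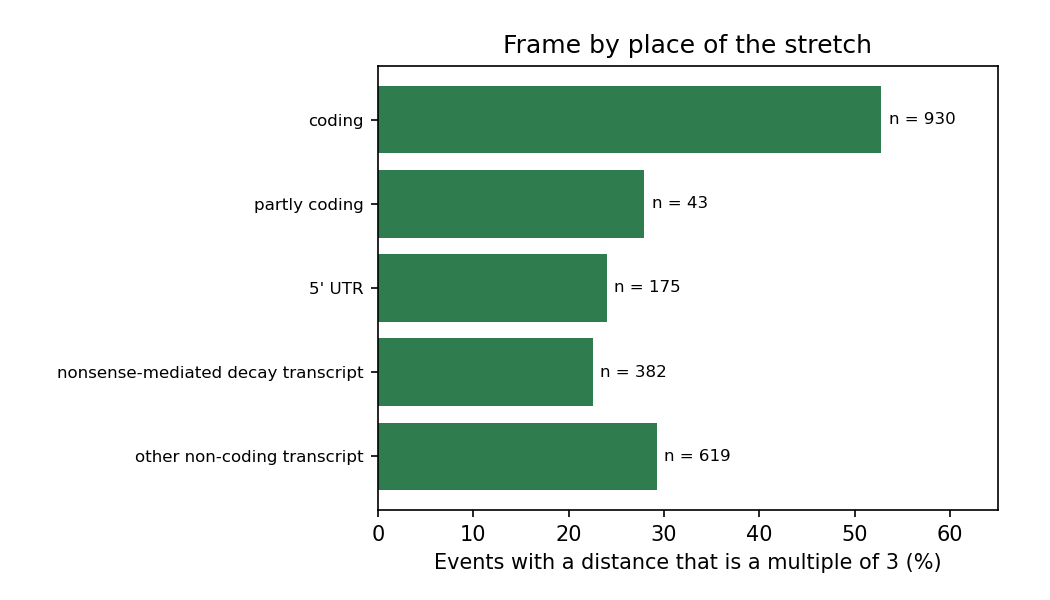
Share of events whose distance between 5' splice sites is a multiple of 3 (x axis, percent, starting at 0), by where the stretch between the sites lies in the annotation, with the number of events beside each bar. The bar for coding stretches, at 52.8%, is the longest, and that for stretches of nonsense-mediated decay transcripts, at 22.5%, is the shortest.

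The sequence at the upstream site was read for 2059 events, of which 1979 (96.1%) began with GT and 77 with GC. Close pairs were often not read, with 269 of 374 read at 1 to 12 nt, 15 of them GC. The GC count is therefore too low, because 20 of the 84 stretches of 4 nt alone began with GC. Over the 9 bases around the cut (3 exonic, 6 intronic), the upstream site matched the U1-complementary consensus (CAG before the cut and GTAAGT after it) at a median of 6 bases. In the 793 events (36.6%) where a transcript also covered the downstream site, the upstream site had more matches in 287, the downstream site in 279 and both had the same number in 227. The counts were also taken by use of the sites. In the 80 such events of inclusion below 0.05 the upstream site was the better match in 40 and the downstream site in 19, and in the 323 of inclusion above 0.95 the counts were 96 and 138. These are counts over sequences that an annotated transcript happens to cover.

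By the values of the authors' deposited table, 34 events of 2166 (1.57%), in 33 genes, had an FDR below 0.05 with an inclusion level difference of at least 0.1, and these are the events said to have passed. The long form was higher in the first set in 23 (1.06%) and in the second set in 11 (0.508%). In 7 of the 34 (in Htra2, Inpp4a, Klc1, Parp9, Tmem234 and both of Phkg2) the same sites also stood on rows that did not pass. In 27 of the 34 the inclusion levels of the sets did not overlap, against 199 of all events (9.19%), but the rule itself picks events whose sets differ. Over all events the median absolute difference was 0.012. By the same rule 41 of 3713 alternative 3' splice site events (1.1%) passed, 25 higher in the first set and 16 in the second. With the FDR alone, 99 events (4.57%) passed, 67 higher in the first set (3.09%) and 32 in the second (1.48%), and in the whole table of 2626 rows 63 (2.4%) met the FDR and the difference, low reads included.

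The 34 events were spread over the distances: 2 of 374 (0.535%) at 1 to 12 nt, 10 of 529 (1.89%) at 13 to 50 nt, 7 of 350 (2%) at 51 to 100 nt, 5 of 478 (1.05%) up to 300 nt and 10 of 435 (2.3%) above 300 nt. Of the last group, 4 were higher in the first set and 6 in the second. Multiples of 3 made up 15 of the 34 (44.1%), beside 37.7% of all events. They were 12 of the 23 higher in the first set (52.2%) and 3 of the 11 higher in the second (27.3%), and the difference between these shares was not tested. All 34 lay between 0.05 and 0.95 in inclusion, where 3.46% of 984 events passed. None passed among 340 events below 0.05 or 842 above 0.95, where a difference of 0.1 has little room, although 11 and 14 of these had an FDR below 0.05 in the authors' deposited table. The plot of difference against inclusion shows this shape.

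**Figure D3:**
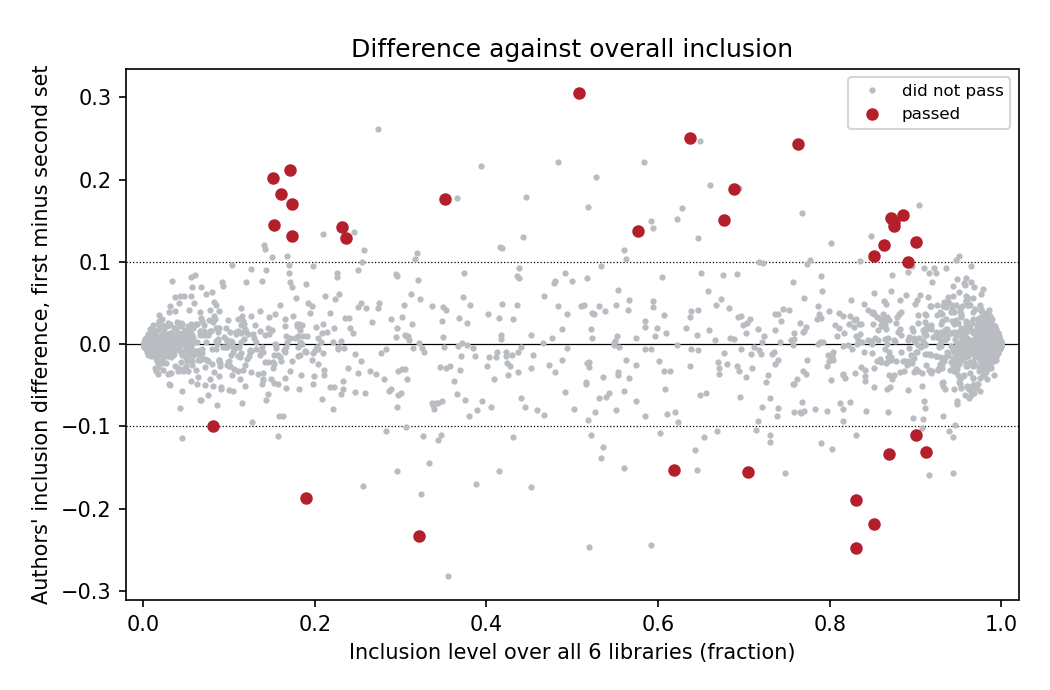
Authors' inclusion level difference (y axis, first minus second set, fraction) against the inclusion level over all 6 libraries (x axis, fraction), 1 point per event; red points passed, grey points did not, and dotted lines mark differences of 0.1 in either direction. The 34 red points lie between inclusion levels of 0.05 and 0.95, with 23 above and 11 below 0.

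The spread between libraries was narrower in events with more reads. The range of inclusion over the 6 libraries had a median of 0.168 in 303 events with 20 to 50 reads, 0.0900 in 760 with 50 to 200, 0.0342 in 814 with 200 to 1000 and 0.0101 in 289 with 1000 or more. Median inclusion rose over the same groups, from 0.52 to 0.663, 0.930 and 0.990. A level near 1 leaves little room for a range or a difference, and the parts of depth and level were not separated. Of those with 1000 or more reads, only the event of Mprip passed. In 6 of the 34 events (Dag1, Phf11d, Slc25a40, Hdac7, Abca2 and Inpp4a) the rarer form had fewer than 20 reads over all libraries together, as it had in 42.6% of all events. Their differences rest on few reads.

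The coding stretches included 14 events that passed (1.51% of 930), and 10 of these had a length that keeps the frame. In 2 of these 10, Tjp1 and Abca2, the short form was not annotated as a protein-coding transcript. The short form of Tjp1 was annotated in a transcript for nonsense-mediated decay. The largest difference among all events that passed was in Tjp1, which encodes the tight-junction scaffold ZO-1. Its 39 nt stretch was included at 0.655, 0.635 and 0.635 in the first set and at 0.353, 0.305 and 0.351 in the second. The sets were far apart and each was narrow, with exact 95% intervals for counting error of 0.567 to 0.737 in the first library of the first set and 0.272 to 0.443 in the first library of the second. In the authors' deposited table the difference for Tjp1 was 0.305 with an FDR of 9.03e-10, at a mean of 111 reads. Leaving out any 1 library gave differences of 0.290 to 0.314.

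Usp5 encodes a deubiquitinase that takes apart unanchored ubiquitin chains. The long form, with 69 nt more, was the minor one in every library, at 0.267, 0.248 and 0.309 in the first set and 0.0708, 0.0690 and 0.0494 in the second. All 3 libraries of the first set lay above all 3 of the second. The authors' deposited table gave Usp5 a difference of 0.212 and an FDR listed as 0, with 328 reads. It rests on 380 long-form reads in the first set and 82 in the second, beside 670 and 837 short-form reads.

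In 4932438A13Rik, a very large gene, the 105 nt stretch was included at 0.408 to 0.469 in the first set and 0.246 to 0.265 in the second (difference 0.176, FDR 0.00011, authors' deposited table). Hps1, a subunit of a complex needed to make lysosome-related organelles, used its 24 nt stretch at 0.264 to 0.357 and 0.119 to 0.195. Ehmt1, a histone H3 lysine methyltransferase, used the downstream site of its 6 nt pair at 0.144 to 0.321 and 0.0506 to 0.122. Both were higher in the first set without overlap, and the authors' deposited table gave differences of 0.142 for Hps1 (FDR 0.0297) and 0.145 for Ehmt1 (FDR 0.00196). Without library 3 of the first set the Ehmt1 difference was 0.0974.

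Rnf220, an E3 ubiquitin ligase, went the other way. Its 78 nt stretch was included at 0.543, 0.558 and 0.541 in the first set and 0.697, 0.752 and 0.653 in the second, at 459 reads, with a difference of -0.153 and an FDR of 4.06e-05 in the authors' deposited table. Mprip, which tethers myosin phosphatase to actin, was the deepest of the events that passed, at 1813 reads. Its 354 nt stretch stood at 0.800, 0.784 and 0.789 in the first set and 0.911, 0.930 and 0.934 in the second. The authors' deposited table listed the Mprip difference as -0.134 and its FDR as 0, and no library moved the difference beyond -0.141 to -0.129. With no correction for form length, however, Mprip had a difference of -0.0480.

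The other 3 frame-keeping coding events were thinner. Abca2, a lipid transporter, stood at 0.906 to 1 in the first set and 0.691 to 0.878 in the second, on 2 and 13 short-form reads, and its difference of 0.157 (FDR 0.00196, authors' deposited table) was 0.0971 without library 3 of the second set. Inpp4a, a phosphoinositide phosphatase, had 2 and 8 short-form reads and overlapping sets, and its difference was 0.12 (FDR 0.0275, authors' deposited table). That of Inpp4a was 0.0526 without library 1 of the second set and 0.214 without library 2 of it, 0.188 without library 2 of the first set, and 0.0856 to 0.0929 without any of the other 3 libraries. Klc1, a kinesin light chain, had overlapping sets at 0.852 to 0.932 and 0.719 to 0.862. The Klc1 difference of 0.107 (FDR 0.0286, authors' deposited table) was 0.0680 without library 1 of the second set, and 0.0955 and 0.0924 without libraries 2 and 3 of the first. Its sites stood on 2 deeper rows that did not pass, with differences of 0.021 (144 reads, FDR 1) and -0.077 (146 reads, FDR 0.263) for Klc1, and those of Inpp4a on 1, with 0.152 (36.5 reads, FDR 0.759).

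The 4 coding events that shift the frame were in Htra2, Pias3, Avl9 and Phkg2. Htra2, a mitochondrial serine protease, had its 37 nt stretch included at 0.935, 0.721 and 0.782 in the first set and 0.593, 0.512 and 0.580 in the second. The sets did not overlap, but a mean of 35.3 reads left wide room. For Htra2 the authors' deposited table gave 0.251 with an FDR of 0.0291, and leaving out 1 library gave 0.190 to 0.296. The same sites of Htra2 stood on 2 other rows with more reads, which did not pass and had differences of -0.028 (217 reads, FDR 0.334) and -0.074 (49 reads, FDR 0.872). Pias3, an inhibitor of STAT3 and SUMO ligase, was tighter, with its 31 nt stretch at 0.603 to 0.665 in the first set and 0.777 to 0.793 in the second (difference -0.156, FDR 0.018, authors' deposited table). Avl9 had its 31 nt stretch at 0.0989 in 1 library of the first set and at 0 in the others, and at 0.121 to 0.141 in the second set (difference -0.1, FDR 0.0126, authors' deposited table), on 4 and 16 long-form reads. The Avl9 difference was -0.0838 without library 2 or 3 of the first set, and -0.0963 and -0.0980 without libraries 2 and 3 of the second.

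Phkg2, the catalytic subunit of liver phosphorylase kinase, passed on 2 of its 9 rows, which share 1 upstream site and the same short-form reads (6 and 27). The 64 nt row stood at 0.893 to 0.979 and 0.720 to 0.880 without overlap. The 42 nt row, with a long form in a transcript annotated for decay and in no protein-coding one, stood at 0.877 to 0.979 and 0.653 to 0.898 with overlap. The authors' deposited table gave 0.148 and 0.153 for Phkg2. The 42 nt difference was 0.0837 without library 3 of the second set, and the 64 nt difference of Phkg2 was never below 0.107. Other rows of Phkg2 with the same sites went the other way without passing, at -0.032 on 119 reads for the 64 nt pair (FDR 0.371) and -0.083 on 47.5 reads for the 42 nt pair (FDR 0.241, authors' deposited table). A further 3 rows, of 319, 341 and 383 nt, had an FDR below 0.05 with differences of 0.076, 0.092 and 0.079.

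Stretches in transcripts annotated for nonsense-mediated decay held 5 events that passed (1.31% of 382), and the long form was higher in the first set in all 5. Tmem234 was the largest of them: its 109 nt stretch was included at 0.833, 0.915 and 0.902 in the first set and 0.689, 0.703 and 0.530 in the second. The sets did not overlap, and the authors' deposited table gave Tmem234 a difference of 0.243 with an FDR of 9.4e-08, at 194 reads. On 3 other rows the same sites of Tmem234 had 214 to 416 reads and did not pass, with differences of 0.012, 0.038 and -0.034 (FDR 0.820 to 1). Echdc2, an enoyl-CoA hydratase family gene, was included at 0.725 to 0.785 and 0.561 to 0.654 (278 nt, difference 0.151, FDR 0.000111, authors' deposited table; 0.0831 with no length correction). Khnyn, an endoribonuclease partner of the antiviral protein ZAP, had its 60 nt stretch at 0.243 to 0.323 and 0.156 to 0.174 (difference 0.129, FDR 0.000791, authors' deposited table). Parp9, an interferon-responsive gene of the PARP family, had its 108 nt stretch at 0.221 to 0.261 and 0.0427 to 0.183. In Parp9 the authors' deposited difference of 0.131 ran from 0.101 to 0.171 without 1 library, and another row of its sites (32 reads, 0.203, FDR 0.501) did not pass.

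The 5' UTR held 6 events that passed, 3.43% of 175, with 4 higher in the first set and 2 in the second. Efr3a, a plasma-membrane anchor of a phosphatidylinositol kinase, had its 67 nt stretch at 0.197, 0.291 and 0.243 in the first set and 0.0140, 0.141 and 0.0675 in the second (difference 0.17, FDR 4.06e-05, authors' deposited table). Zfp991, a zinc finger gene in a family of near-identical copies whose reads may be shared, was at 0.301, 0.359 and 0.142 and at 0.0688, 0 and 0.128. Its sets barely failed to overlap, and the authors' deposited difference for Zfp991 of 0.202 (FDR 0.00792, 36 reads) ran from 0.156 to 0.265. Trmt1, a tRNA guanosine methyltransferase, was higher in the second set, at 0.224, 0.360 and 0.275 against 0.0386, 0.115 and 0.144 in the first (27 nt, difference -0.187, FDR 0.0148, authors' deposited table).

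Of the remaining 5' UTR events, Mrps17, a mitochondrial ribosomal protein gene, lay at 0.935 to 1 and 0.793 to 0.890 (29 nt, difference 0.124, FDR 0.0427, authors' deposited table). Kansl2, a subunit of a histone acetyltransferase complex, lay at 0.911 to 0.960 and 0.789 to 0.881 (339 nt, difference 0.1, FDR 0.00443, authors' deposited table). The Kansl2 difference was 0.0759 without library 1 of the second set, and 0.0883 and 0.0981 without libraries 1 and 3 of the first. Dag1, the dystroglycan gene, rested on 7 short-form reads in the first set and 0 in the second, with overlapping sets. Its difference of -0.131 (FDR 0.0339, authors' deposited table) was -0.0465 without library 2 of the first set, which held most of those reads.

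The 9 events in other non-coding transcripts (1.45% of 619) were, except for the 4 nt pair of Dpp7, stretches of 310 nt or more, and none was a multiple of 3. In this table, reads inside a long stretch count for the long form whether they come from use of the downstream site or from an unspliced intron. Prpf39 encodes a protein that joins U1 snRNP at the 5' splice site. Its 520 nt stretch stood at 0.659, 0.631 and 0.666 in the first set and 0.534, 0.514 and 0.494 in the second, at 468 reads. For Prpf39 the authors' deposited table gave 0.138 with an FDR of 0.00202, and left-out libraries gave 0.128 to 0.148. With no length correction the difference was 0.0664 for Prpf39, 0.0992 for Ccnt2, 0.0168 for Cnot7, -0.0219 for Slc25a40, -0.0444 for Phf11d and -0.0143 for Mapkapk3, each under the minimum of 0.1. Ccnt2, the cyclin T2 subunit of the elongation factor P-TEFb, stood at 0.765, 0.738 and 0.821 and at 0.557, 0.548 and 0.656 (310 nt, difference 0.188, FDR 0.00218, authors' deposited table). Cnot7, a catalytic subunit of the CCR4-NOT deadenylase, stood at 0.884, 1 and 0.978 and at 0.835, 0.722 and 0.872, on 6 and 30 short-form reads. Its authors' deposited difference of 0.144 (FDR 0.000791) ran from 0.101 to 0.179 for Cnot7.

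Long stretches favoured in the second set were in Cyb5rl, Slc25a40, Hdac7, Phf11d and Mapkapk3. Cyb5rl, a cytochrome b5 reductase-like gene, was included at 0.252, 0.243 and 0.235 in the first set and 0.501, 0.338 and 0.591 in the second (1724 nt, difference -0.233, FDR 0.0139, authors' deposited table). The first set was narrow and the second wide, and the Cyb5rl difference ran from -0.302 to -0.176. Slc25a40, a mitochondrial carrier, was at 0.813, 0.696 and 0.765 in the first set and 1, 1 and 0.932 in the second (1783 nt, difference -0.219, FDR 0.000381, authors' deposited table). That rested on 11 short-form reads in the first set and 1 in the second.

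Hdac7, a class IIa histone deacetylase, had short-form reads in 2 libraries only, 2 and 5 reads, both in the first set. Its levels were 0.616, 0.640 and 1 in the first set and 1 in each library of the second, so the sets touched (1381 nt, difference -0.248, FDR 0.00421, authors' deposited table). A level of 1 on 79 reads still allowed a true value down to 0.664 in that Hdac7 library by an exact 95% interval, and the difference was -0.372 without that library, -0.180 and -0.192 without libraries 1 and 2 of the first set, and -0.0354 with no length correction. Phf11d, a PHD finger gene with close paralogs, overlapped at 0.685, 0.740 and 0.808 and at 1, 0.803 and 1, on 11 and 2 short-form reads (667 nt, difference -0.19, FDR 0.00774, authors' deposited table). Without 1 library the Phf11d difference ran from -0.256 to -0.157. Mapkapk3, a stress-activated kinase, overlapped at 0.779 to 0.886 and 0.876 to 1 (1202 nt, difference -0.111, FDR 0.0165, authors' deposited table). Its difference was -0.0772 without library 2 of the first set and -0.0907 without library 1 or 2 of the second.

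Among the 84 pairs 4 nt apart, 1 passed (1.19%). Dpp7, a lysosomal dipeptidyl peptidase, used its downstream site at 0.154, 0.280 and 0.300 in the first set and 0, 0.0464 and 0.140 in the second. The sets came close to each other at a mean of 23.3 reads. The authors' deposited table gave 0.183 with an FDR of 0.000771 for Dpp7, and left-out libraries gave 0.152 to 0.228. Its exact 95% interval in a single library was as wide as 0.0173 to 0.421. The deepest 4 nt pair named here, that of the splicing factor gene Srsf5, lay at 0.783 to 0.796 in all 6 libraries at 12208 reads, with a difference of 0.003 in the authors' deposited table.

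**Figure D4:**
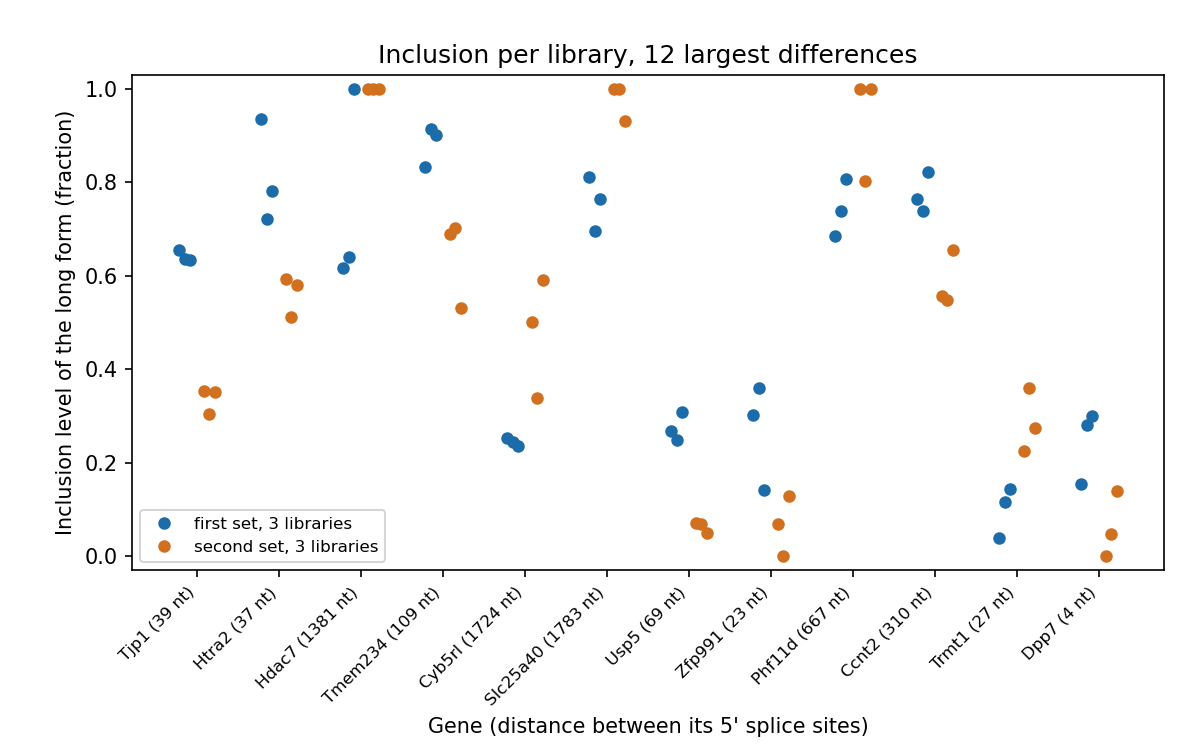
Inclusion level of the long form in each library (y axis, fraction) for 12 events, 1 per gene (x axis, distance in brackets). They have the largest absolute difference among the 34 events that passed. Blue points are the 3 libraries of the first set and orange points the 3 of the second. The sets are separate for 10 of the 12 genes, and overlap for Hdac7 and Phf11d. Sets were separate in 9.19% of all events, but the rule itself picks events whose sets differ.

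Pyrimidine motifs known to be bound by the PTB family were searched on the sense strand of the stretch between the sites. TCTT was present in 19 of the 34 stretches that passed (55.9%) and in 35.6% of all, CTTT in 17 (50%) and 37.8%, TTTCT in 13 (38.2%) and 22.8%, and CTCTCT in 7 (20.6%) and 7.54%. The motifs overlap one another and grow more common with length, so the comparison was made within distance bins. TCTT was in 3 of 10 (30%) of the events that passed at 13 to 50 nt and 7.94% of all at that length, in 4 of 7 (57.1%) and 22.9% at 51 to 100 nt, in 3 of 5 (60%) and 51.9% up to 300 nt, and in 9 of 10 (90%) and 91.9% above 300 nt. The 42 nt stretch of Phkg2 lies inside its 64 nt stretch. The same TCTT is therefore counted at 13 to 50 nt and again at 51 to 100 nt. CTTT was in 1 of 10 (10%) and 10.8% at 13 to 50 nt and in 3 of 7 (42.9%) and 26.3% at 51 to 100 nt. Its shares were 60% and 54.4% up to 300 nt, and 100% and 94.2% above. TTTCT was in 10% and 3.02% at 13 to 50 nt and in 42.9% and 13.4% at 51 to 100 nt. For TTTCT the shares were 20% and 23.3% up to 300 nt, and 80% and 73.5% above. CTCTCT was in none of the events that passed up to 100 nt. It was in 2 of 5 (40%) and 7.14% up to 300 nt, and in 5 of 10 (50%) and 27.9% above. These differences were not tested. Length was not matched within the bins. Above 300 nt the median length was 934.5 nt in the events that passed and 564 nt in all. Up to 300 nt it was 109 and 169 nt. Median pyrimidine content was 20.8% in the events that passed and 30% in all at 1 to 12 nt, 45.03% and 44.4% at 13 to 50 nt, 54.4% and 47.7% at 51 to 100 nt, 58.7% and 49.4% up to 300 nt, and 51.9% and 50.7% above 300 nt. A motif in these letters is a description of the stretch and not a binding site. The Tjp1 stretch printed above holds TCTT and CTTT once each. The pyrimidine-rich stretch of Usp5 holds TTTCT, but not TCTT, CTTT or CTCTCT.

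Of 20 preset genes known for regulated splicing or for acting in it, 8 had an event with at least 20 reads. Tjp1 passed, and the other 7 did not. Snrnp70, the U1-70K protein of U1 snRNP, had a 1300 nt event at 0.928, 0.953 and 0.955 in the first set and 0.886, 0.903 and 0.906 in the second. The sets did not overlap, at 4797 reads, but the authors' deposited difference for Snrnp70 was 0.047 (FDR 0.000413), below the minimum of 0.1. The 9 nt event of Ptbp3, a paralog of Ptbp1, overlapped at 0.838 to 0.953 and 0.903 to 0.948 (FDR 0.39, authors' deposited table). Luc7l, a U1-associated protein gene, overlapped at 0.432 to 0.606 and 0.455 to 0.490, Tra2a, a splicing activator, at 0.821 to 0.901 and 0.859 to 0.900, and Mdm2, the p53 ubiquitin ligase, at 0.0104 to 0.0253 and 0.0116 to 0.0443. Fgfr2, a growth factor receptor, ranged from 0.694 to 1 on 28.2 reads with overlapping sets and a difference of -0.013 in the authors' deposited table.

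Genes that act at the 5' splice site or read its outcome were taken from lists of U1 snRNP proteins, U1-associated factors, factors of the U5 and U6 side, and nonsense-mediated decay factors. Of their 28 events, 1 passed (Prpf39) and 1 more had an FDR below 0.05 (Snrnp70), in a table where 1.57% of all events passed and 4.57% had such an FDR, so the lists' counts are near that background. Upf1, the central helicase of decay, has a 33 nt stretch that lengthens a regulatory loop of the protein. It was included at 0.160, 0.228 and 0.188 in the first set and 0.274, 0.242 and 0.215 in the second, which overlapped, with a difference of -0.052 and an FDR of 0.625 in the authors' deposited table.

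Gene levels, unlike the splicing table, are given by genotype, as 1 FPKM value per group with no error of its own. Over all 15460 genes tested, 83 (0.537%) had a q-value below 0.05 in the authors' deposited table, 60 higher (0.388%) and 23 lower (0.149%) in PTBP1_KO. The targeted gene Ptbp1 had 230.0 FPKM in WT and 122.8 in PTBP1_KO (q = 0.0125, authors' deposited table). Its paralog Ptbp2 had 19.04 and 35.9 FPKM (q = 0.156) and Ptbp3 41.4 and 41.8 FPKM. None of the 10 U1 snRNP genes, 18 U1-associated genes, 14 genes of the U5 and U6 side or 16 decay genes passed. At an unadjusted p below 0.05 there were 0, 0, 0 and 2, the 2 being Magohb (37.7 and 52.2 FPKM) and Rnps1 (55.9 and 71.9 FPKM), both of the exon junction complex. Median log2 ratios of PTBP1_KO to WT, with 1 FPKM added, were 0.02, -0.06, 0.02 and -0.07, beside 0.02 for all genes tested.

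Genes whose 5' splice sites passed did not pass at the level of the gene. Of these 33 genes 0 had a q-value below 0.05 in the authors' deposited table (Cuffdiff), and 1 had an unadjusted p below 0.05, Mprip, with 73.4 FPKM in WT and 52.3 in PTBP1_KO (q = 0.244). In 19 of the 33 the level was higher in PTBP1_KO, and their median log2 ratio was 0.01. Over the 1627 tested genes with any event, none passed, 34 had an unadjusted p below 0.05, 828 were higher in PTBP1_KO and the median was 0.00. The plot of gene levels shows both groups of genes along the line of equal level, with Ptbp1 below it and Ptbp2 above it.

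**Figure D5:**
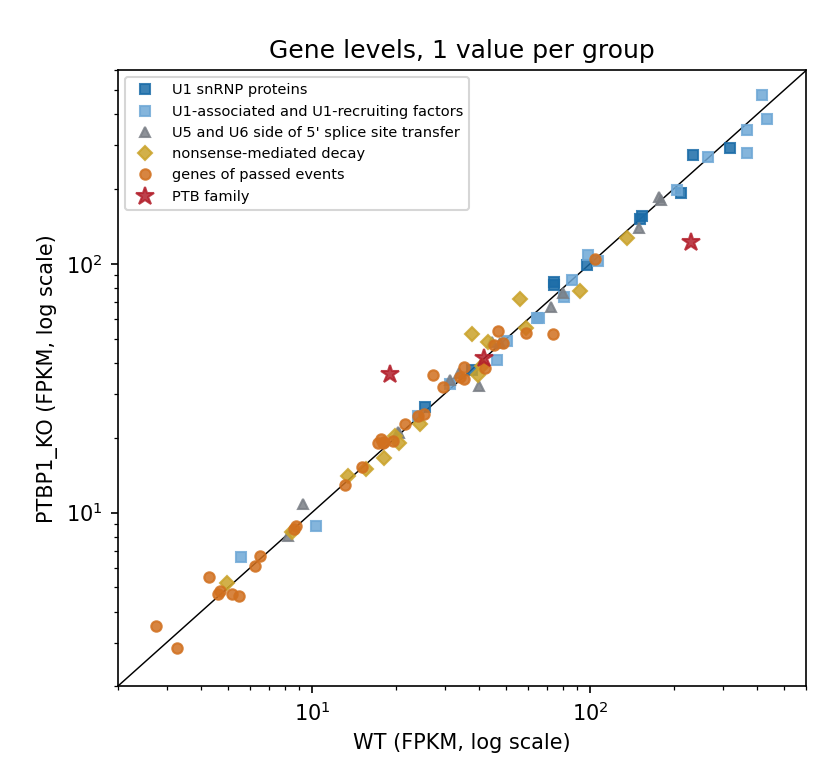
FPKM in PTBP1_KO (y axis, log scale) against WT (x axis, log scale), 1 value per genotype and no error, for genes of the 5' splice site and decay lists, the 33 genes whose 5' splice sites passed, and the PTB family; the line marks equal levels. Ptbp1 (230.0 and 122.8 FPKM) lies below the line and Ptbp2 (19.04 and 35.9 FPKM) above it.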

How the data were processed

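Groups were taken from the sample titles and genotype labels. The submitters' processing notes name STAR 2.6.1d, Trimmomatic 0.38, bcl2fastq 2.20, Cuffdiff and Cufflinks, with mm10; the version of the splicing caller is not given in the sources used here. The deposited splicing tables have the MATS layout and hold, for each of 6 libraries, counts of reads of the long and short form from junctions and exon bodies, their effective lengths (144 for the short form, the distance plus 144 for the long), and a p-value and FDR computed by the authors. A deposited inclusion level difference on a fraction scale, first minus second set, is in the same table. Per the file headers the sets are named only by number, so the planned model by genotype was not run and the authors' FDR was used. Gene levels are 1 FPKM value per genotype, deposited by the authors beside a log2 fold change, a test statistic score, a q-value and a p-value; their depth is unknown.

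Inclusion was recomputed per library and its set difference equalled the deposited one within 0.00101. An event passed at an FDR below 0.05, a difference of at least 0.1 and a mean of at least 20 reads. Intervals are exact (Clopper-Pearson) 95% binomial intervals of the read counts, carried through the length correction, and cover counting error only. Named events are all that passed, with every library given for the 12 largest, 1 per gene, plus 20 preset genes. The members and lists were chosen with earlier results of these data known. Other events named (Upf1, Hmga1 and those of the closing section) were chosen after their values were seen.

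Sequences and annotation came from GENCODE M21 transcripts through exon coordinates; no genome sequence was used, so the planned motif search in the intron after the downstream site was not run. The scripts were tested on simulated data. Scripts ran in Python 3.11.15 with scipy 1.17.1, pandas 2.3.3, numpy 2.4.6 and, for figures, matplotlib 3.10.9.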

Additional observations from a re-analysis of the deposited data

How the results depend on the processing

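The 34 events became 73 with a minimum difference of 0.05, 8 with 0.2 and 99 (67 higher in the first set, 32 in the second) with the FDR alone. They became 48 with a mean of 10 reads, 25 with 50, 30 with 20 reads in every library and 29 with 1 row per pair of sites, the deepest, which dropped Htra2, Inpp4a, Klc1, Tmem234 and the 64 nt event of Phkg2. With each library left out in turn and the authors' FDR kept, 33 to 39 events passed, and 29 to 32 of the 34 were kept each time. With any library left out, 25 of the 34 kept a difference of at least 0.1; the 9 others were Abca2, Avl9, Dag1, Ehmt1, Inpp4a, Kansl2, Klc1, Mapkapk3 and the 42 nt event of Phkg2. With reads summed over a set, Klc1 and Kansl2 fell below 0.1. With no length correction 13 did: Hdac7, Slc25a40, Phf11d, Ccnt2, Echdc2, Cnot7, Prpf39, Mprip, Dag1, Inpp4a, Mapkapk3, Klc1 and Kansl2; counts inside long stretches then outweigh the short form by construction. No event that passed changed direction. The share of multiples of 3 was 43.4% to 46.6% under the alternatives tried. Medians of gene lists did not change side with a pseudocount of 0.1 FPKM or a minimum of 1 FPKM. No paired analysis was possible because the libraries of the splicing table are not tied to samples and the gene table has 1 value per group. Not run: motifs in the intron after the downstream site. Depth limits events under 50 reads, where inclusion ranged over a median of 0.168 across libraries.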

Other observations

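A further 65 events had an FDR below 0.05 in the authors' deposited table with a difference under 0.1. In 49 of them the sets did not overlap, against 199 of all 2166 events (9.19%). The FDR compares the same sets, so it picks events whose sets differ. The following were chosen after their values were seen. Hmga1, an architectural chromatin protein gene whose 33 nt coding stretch is printed above, was included at 0.481, 0.468 and 0.482 in the first set and 0.386, 0.399 and 0.406 in the second, on 3147 reads (difference 0.08, FDR 0.00802, authors' deposited table). Another pair of rows of Hmga1 at 33 nt, each on 162.5 reads at 0.943 to 1, had an FDR of 1 and differences of 0.02 and 0.003. Add1, the adducin of the spectrin and actin skeleton, used a 93 nt frame-keeping stretch at 0.122, 0.0889 and 0.0999 in the first set and at 0.0334, 0.0309 and 0.0386 in the second (difference 0.069, FDR listed as 0, authors' deposited table).

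Tyms, the thymidylate synthase gene, had a 1800 nt stretch at 0.0405, 0.0389 and 0.0508 and at 0.0123, 0.0181 and 0.0229 (difference 0.026, FDR listed as 0, authors' deposited table). Gas5, a non-coding host gene of small nucleolar RNAs, filled 13 rows. A 230 nt row of Gas5 with 10463 reads stood at 0.932 to 0.951 in the first set and 0.911 to 0.924 in the second (difference 0.028, FDR 0.000148, authors' deposited table). A 335 nt row of Gas5 on 12629 reads went the other way, by -0.007 (FDR 0.0119, authors' deposited table). The other 230 nt rows of Gas5, with 3608 and 3488 reads, had an FDR of 1 and differences of -0.005 and -0.001, so rows of 1 gene with the same distance did not give the same result.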
